A study of Mus musculus with 3 samples.

Results

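The genes of fructose and glucose handling were followed in single-cell RNA sequencing (scRNA-seq) of mouse intestinal organoids. They are 7 of the 32285 genes counted: Slc5a1, Slc2a5, Slc2a2, Khk, Fbp1, G6pc and Mlxipl. The genes were taken by symbol for their roles in hexose uptake and metabolism, and every symbol matched exactly 1 gene identifier. Organoids are epithelial cells grown as hollow bodies in a gel. They came from small intestines of C57BL/6 mice in 3 groups with 1 library per group. WT organoids were wild type. LApc organoids carried Lgr5-CreERT2 and Apc fl/fl, so that tamoxifen activates Cre in cells expressing the stem cell gene Lgr5 and deletes Apc, the scaffold that restrains Wnt signalling. LApcL organoids carried Lef1 fl/fl in addition, for loss of the Wnt-pathway transcription factor Lef1. All mice, WT included, received 2 doses of 2 mg tamoxifen at 7 to 8 weeks of age. The labelled interval after tamoxifen was 29 days in LApc and 21 days in WT and in LApcL, and all organoids were taken at passage 3, day 6. Genotype and interval therefore cannot be told apart between LApc and the other groups. The study's methods describe culture of LApc and LApcL organoids without added growth factors for 2 passages, and medium with combinations of growth factors at passage 3. They do not say which medium the sequenced organoids had, and they give none for WT organoids. Medium and genotype therefore cannot be told apart.

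Dietary glucose and galactose enter enterocytes with sodium through SGLT1, the product of Slc5a1, and fructose enters through GLUT5, the product of Slc2a5. GLUT2, encoded by Slc2a2, carries both sugars across membranes by facilitated diffusion. Ketohexokinase (Khk) phosphorylates fructose, later enzymes, among them triokinase (Tkfc), take the product on to triose phosphates, and fructose-1,6-bisphosphatase (Fbp1) and glucose-6-phosphatase (G6pc) lead carbon back to free glucose. Mlxipl encodes ChREBP, a sugar-responsive transcription factor that acts with its partner Mlx at paired E-boxes. In the small intestine these genes are mainly known from absorptive enterocytes.

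Levels were computed in deep barcodes, meaning barcodes found in 1 library only, with at least 10000 unique molecular identifiers (UMIs, 1 per captured RNA molecule) and at most 20% mitochondrial UMIs. There were 1208 such barcodes of 11411 in WT, 2161 of 10706 in LApc and 1931 of 12068 in LApcL. Their UMIs totalled 48895147, 90864428 and 80504226, and the median barcode held 38073.5, 34377 and 32584. Before the mitochondrial limit, 26.1% of WT barcodes at this depth were over it, against 12.0% in LApc and 11.8% in LApcL. The same 3195 barcodes occurred in all 3 libraries, and barcodes of more than 1 library were left out of the deep set. The markers bear out the epithelial label: Epcam was detected in every deep barcode of each library, and the lists of 5 endothelial, 4 immune and 4 fibroblast markers each summed to at most 6.54 CPM (UMIs per 1e6 UMIs) in any library. Apc stood at 20.0, 88.5 and 95.4 CPM and Lef1 at 0.961, 72.0 and 47.8 CPM in WT, LApc and LApcL. These 3′ counts do not show how complete either deletion was. The 4 Wnt target genes Nkd1, Notum, Wif1 and Prox1 summed to 3.27 CPM in WT against 1381 in LApc and 412 in LApcL. The kit version, v2 or v3 in the study's methods, is not stated per library, so kit and genotype cannot be told apart in comparisons between libraries. Each group had 1 library, so no test between groups was possible. The 95% intervals given in parentheses are exact and cover counting error only, not the spread between mice or cultures.

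The promoter sequences of 3 members are shown first, as examples of windows in which a searched motif occurs and whose RefSeq start matches the annotated gene start. Each run is the 250 bases upstream of a RefSeq transcript start on GRCm38.p6, 5′ to 3′ on the gene's strand, with the searched motif in capitals. The Slc5a1 window lies at chr5:33103969-33104218 on the forward strand, the Mlxipl window at chr5:135089640-135089889 on the forward strand, and the Fbp1 window at chr13:62888283-62888532 on the reverse strand.
Slc5a1: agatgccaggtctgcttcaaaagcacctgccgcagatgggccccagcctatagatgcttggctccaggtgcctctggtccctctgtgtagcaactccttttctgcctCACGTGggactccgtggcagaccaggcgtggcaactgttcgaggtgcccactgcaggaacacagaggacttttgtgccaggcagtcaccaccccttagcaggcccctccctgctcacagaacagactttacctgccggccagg
Mlxipl: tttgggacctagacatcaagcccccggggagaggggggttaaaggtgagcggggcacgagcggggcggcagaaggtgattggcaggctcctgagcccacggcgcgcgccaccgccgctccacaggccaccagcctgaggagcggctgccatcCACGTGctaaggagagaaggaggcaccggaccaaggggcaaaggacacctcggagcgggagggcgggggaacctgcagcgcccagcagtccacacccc
Fbp1: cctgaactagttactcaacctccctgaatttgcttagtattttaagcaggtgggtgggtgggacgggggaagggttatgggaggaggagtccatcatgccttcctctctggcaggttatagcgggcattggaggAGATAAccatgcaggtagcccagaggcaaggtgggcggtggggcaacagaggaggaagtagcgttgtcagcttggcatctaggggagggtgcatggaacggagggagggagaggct
In Slc5a1 and Mlxipl the capitals mark the palindromic E-box CACGTG, whose first base lies at -143 and -98 from the start. In Fbp1 they mark the Gata letters AGATAA at -116. Motifs were searched on both strands in the 8 RefSeq windows of the members, of which Mlxipl had 2. The E-box occurred in 3 of 7 members (Slc5a1, Mlxipl and Khk, at -71 in the latter), against 6.86% of the 27025 genes with a window of this length. CTTTGAT (Tcf/Lef) occurred in G6pc and in 3.72% of all genes. For Khk and G6pc the RefSeq start lies downstream of the GENCODE gene start given below, and both matches fall inside the gene as annotated there. Without the Khk match, 2 of 7 members held the E-box, and bases further upstream of the GENCODE starts were not searched. AGATAA occurred in 11.4% of genes. Neither CAAAGTCCA (Hnf4, 0.451% of genes) nor TTTATNG (Cdx, 11.3%) matched in a member window. A match describes the letters and does not show binding.

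Among the transporters, Slc5a1 (ENSMUSG00000011034; chr5:33104219-33162870, forward strand) kept a clear residual level in the Apc-targeted libraries. It had 25865 UMIs in WT against 2254 in LApc and 2878 in LApcL, so that the levels in CPM were 529 (523 to 535), 24.8 (23.8 to 25.9) and 35.7 (34.5 to 37.1). The WT library was the highest, 21.3-fold (20.4 to 22.3) above LApc and 14.8-fold (14.2 to 15.4) above LApcL. Between the Apc-targeted libraries the level was 1.44-fold (1.36 to 1.52) higher in LApcL, with intervals that did not overlap.

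Slc2a5, the fructose transporter (ENSMUSG00000028976; chr4:150119283-150144169, forward strand), stood at 132 CPM (128 to 135) in WT from 6433 UMIs. Only 21 UMIs were counted in LApc and 37 in LApcL, which gave 0.231 CPM (0.143 to 0.353) and 0.460 CPM (0.324 to 0.634). WT was thus 569-fold (372 to 920) above LApc and 286-fold (207 to 407) above LApcL. Slc2a2 (ENSMUSG00000027690; chr3:28697903-28731359, forward strand) stood at 58.6 CPM (56.5 to 60.8) in WT from 2865 UMIs. It was counted 9 times in LApc and 17 times in LApcL, at 0.0990 CPM (0.0453 to 0.188) and 0.211 CPM (0.123 to 0.338). The fold below WT was 592 (311 to 1295) in LApc and 277 (173 to 477) in LApcL. For both facilitative transporters WT was far above the other libraries. The LApcL level was 1.99-fold (1.13 to 3.58) that of LApc for Slc2a5 and 2.13-fold (0.899 to 5.43) for Slc2a2, so that the Slc2a2 levels of these 2 libraries were not separable at this depth.

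Of the enzymes, Khk (ENSMUSG00000029162; chr5:30921431-30931248, forward strand) gave the most UMIs of any member in WT, with 51227, against 993 in LApc and 792 in LApcL. In CPM the levels were 1048 (1039 to 1057), 10.9 (10.3 to 11.6) and 9.84 (9.16 to 10.5). Khk was 95.9-fold (90.0 to 102) lower in LApc and 106-fold (99.3 to 114) lower in LApcL than in WT. It was the only member counted with a lower level in LApcL than in LApc beyond counting error, at 0.900 of the LApc level (0.819 to 0.989).

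Fbp1 (ENSMUSG00000069805; chr13:62864753-62888282, reverse strand) stood at 210 CPM (206 to 214; 10246 UMIs) in WT, 0.539 CPM (0.399 to 0.713; 49 UMIs) in LApc and 1.09 CPM (0.877 to 1.35; 88 UMIs) in LApcL. It was 389-fold (294 to 526) lower in LApc than in WT and 192-fold (155 to 239) lower in LApcL. Between the Apc-targeted libraries it was 2.03-fold (1.41 to 2.94) higher in LApcL. G6pc (ENSMUSG00000078650; chr11:101367561-101377903, forward strand) was nearly confined to the WT library, with 3443 UMIs or 70.4 CPM (68.1 to 72.8). LApc held 1 G6pc UMI, a ratio of WT to LApc of 6398 with a counting interval from 1148 to 252792. LApcL held 0, and with a floor of 3 counts over the library (0.0373 CPM) the WT level was at least 1890-fold higher.

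Mlxipl (ENSMUSG00000005373; chr5:135089890-135138382, forward strand) had 8720 UMIs in WT against 656 in LApc and 693 in LApcL, so that its CPM was 178 (175 to 182), 7.22 (6.68 to 7.79) and 8.61 (7.98 to 9.27). It was 24.7-fold (22.8 to 26.8) lower in LApc and 20.7-fold (19.2 to 22.4) lower in LApcL than in WT. The 1.19-fold (1.07 to 1.33) higher level in LApcL than in LApc was small beside both differences from WT. Mlxipl and Slc5a1 were therefore the members with the smallest folds, and the others were at least 95.9-fold lower in LApc than in WT.

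**Figure D1:**
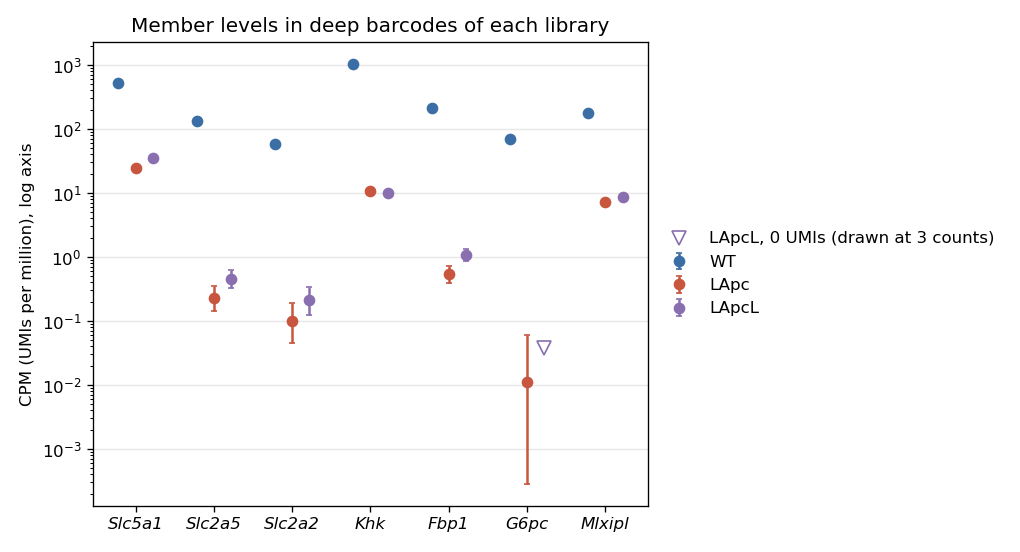
Level of each member in the deep barcodes of each library, in CPM on a log axis, with 1 point per library and exact 95% Poisson intervals that cover counting error only. WT lies above both Apc-targeted libraries for every member, from 529 against 24.8 and 35.7 CPM for Slc5a1 to 70.4 CPM against 1 and 0 UMIs for G6pc, which is drawn at 3 counts in LApcL as an open triangle.

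The plot of levels by library shows the same order, WT above both other libraries, for each member. On the scale log2(CPM + 1), which understates changes of low genes, all 7 members were at least 2-fold lower in LApc than in WT, where 9.58% of the 12784 genes with a mean of at least 1 CPM were lower and 24.8% higher by that much. All 7 were also at least 2-fold lower in LApcL than in WT, where 10.4% of genes were lower and 26.4% higher. The median log2 ratio of the members was -6.14 in LApc, from -7.10 for Fbp1 to -4.36 for Slc5a1, and -6.16 in LApcL, or -6.11 with G6pc at its bound. The corresponding medians over all genes were 0.48 and 0.49, and both comparisons share the WT library. On this scale, between LApcL and LApc, 0 of 7 members were 2-fold lower and 0 of 7 were 2-fold higher, where 4.3% and 1.65% of genes were; the members' median log2 ratio was 0.23 against 0.027 for all genes. All 7 members passed the filter on the mean of the libraries, but through WT: 7 reached 1 CPM in WT against 3 in LApc and 4 in LApcL. Scaling by median-of-ratios size factors moved the all-gene median to 0.11 in LApc and 0.14 in LApcL, and the members stayed below it, with median log2 ratios of -6.41 and -6.42.

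The enterocyte markers moved with the members. The sum of 11 enterocyte markers, none of them a member, was 12357 CPM in WT against 79.6 in LApc and 78.0 in LApcL, and 11 of 11 were at least 2-fold lower in each Apc-targeted library. Fabp1, which encodes a fatty acid binding protein of enterocytes, stood at 9137, 0.231 and 0.0497 CPM, and Apoa4 had 0 UMIs in LApcL. The enteroendocrine and goblet marker sums were also higher in WT, at 973 and 1458 CPM, than in LApc (37.9 and 327) and LApcL (24.2 and 661). Stem cell markers summed to 409, 1042 and 1490 CPM and Paneth markers to 88.6, 1238 and 3370 CPM in WT, LApc and LApcL. The stem cell sum hides Olfm4, the 1 of its 6 markers that was lower in both Apc-targeted libraries, at 72.1 CPM in WT against 0.627 in LApc and 0.0994 in LApcL. In such sums, fewer cells of a type and less RNA per cell cannot be told apart. The members were next followed barcode by barcode, where a detection share also falls with the level per cell and so does not separate the 2.

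To compare detection at equal depth, each deep barcode was thinned to 10000 UMIs, which left out none. Khk was detected in 93.9% (92.4 to 95.2) of WT barcodes, 10.6% (9.29 to 11.9) of LApc and 9.43% (8.16 to 10.8) of LApcL. Slc5a1 was detected in 86.1% (84.0 to 88.0) of WT barcodes, 17.4% (15.9 to 19.1) of LApc and 30.3% (28.3 to 32.5) of LApcL, and it was the member found in the largest share of Apc-targeted barcodes. Mlxipl was found in 76.6% (74.1 to 78.9), 6.71% (5.69 to 7.85) and 8.75% (7.53 to 10.1). These broadly detected genes code for the first kinase of fructose breakdown, the sodium-coupled glucose carrier and the sugar-responsive factor.

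The remaining members were found in a minority of WT barcodes. Fbp1 was detected in 42.7% (39.9 to 45.6), Slc2a5 in 35.1% (32.4 to 37.9), Slc2a2 in 31.8% (29.2 to 34.5) and G6pc in 25.2% (22.8 to 27.8). In LApc these genes were found in 9, 4, 1 and 0 of 2161 thinned barcodes and in LApcL in 18, 16, 1 and 0 of 1931. A count of 0, set at 3 barcodes, allows up to 0.139% of LApc and 0.155% of LApcL barcodes with a UMI at this depth, which does not limit the share of cells expressing the gene. Without thinning, the WT shares ran from 37.3% for G6pc to 98.0% for Khk. Fbp1, Slc2a2 and Slc2a5 were then found in a majority of WT barcodes, at 60.3%, 56.2% and 54.9%. The highest unthinned shares in the other libraries were 43.1% in LApc and 63.1% in LApcL, both for Slc5a1. The unthinned WT UMIs of G6pc, Slc2a5, Fbp1 and Slc2a2 also lay in fewer barcodes. The top 10% of barcodes held 64.7% of G6pc, 63.9% of Slc2a5, 60.2% of Fbp1 and 47.1% of Slc2a2 UMIs. For Slc5a1, Khk and Mlxipl the top 10% held 32.1%, 28.5% and 27.1%.

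**Figure D2:**
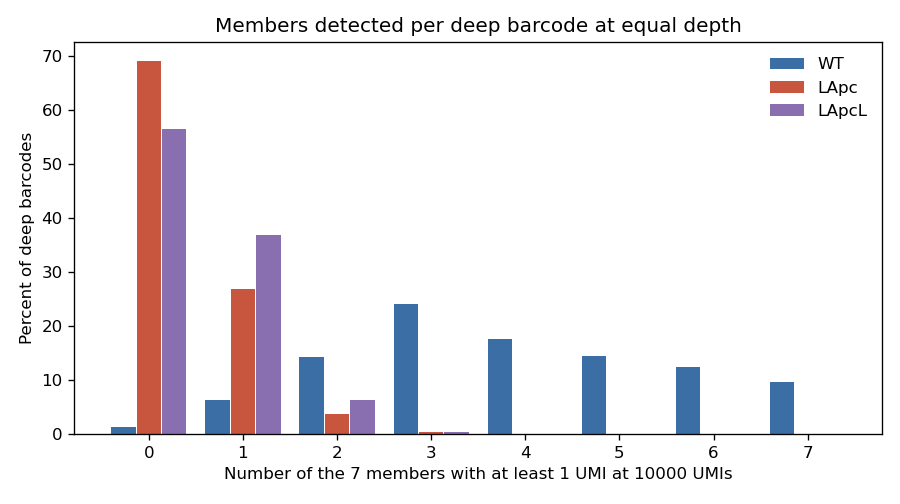
Percent of deep barcodes in each library (vertical axis) by the number of members with at least 1 UMI after thinning to 10000 UMIs (horizontal axis). WT bars extend to all 7 members, which 9.60% of WT barcodes carried, while 69.0% of LApc and 56.6% of LApcL barcodes carried none and no barcode of either carried over 3.

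Several members were found together in 1 barcode in WT, and rarely otherwise. Such counts rise with the share of each member given above, and they do not show co-detection beyond those shares. A WT barcode held a median of 4 of the 7 members, 653 of 1208 barcodes (54.1%) held at least 4, and 116 held all 7. In LApc and LApcL the median was 0 and the highest number was 3. As few as 15 WT barcodes (1.24%) held none, against 1492 in LApc (69.0%) and 1092 in LApcL (56.6%), as the plot of members per barcode shows.

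The same shares were measured in the shallow barcodes that occur in more than 1 library, which are rich in endothelial RNA: Pecam1 was detected in 59.1% to 60.3% of them at 1000 UMIs. At that depth Slc5a1 was found in 6 of 2811 shared WT barcodes and Mlxipl in 5, against 34.3% and 17.5% of deep WT barcodes. Slc2a5, Slc2a2, Fbp1 and G6pc were each found in at most 2 shared WT barcodes. The median UMIs of the thinned shared WT barcodes and of the deep ones were 2392 and 38073.5. The WT shares of these members in deep barcodes were thus above those in the shared barcodes. The shared barcodes recur between libraries and are not shown to hold the free RNA of each library, so they give no background level for it, and free RNA was not measured.

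Khk was the member found most often in the shared barcodes. At 1000 UMIs it was found in 1.60% (1.17 to 2.14) of shared WT barcodes, 1.45% (1.0 to 2.03) of LApc and 1.29% (0.880 to 1.83) of LApcL, close to equal in the 3 libraries. The deep barcodes held it in 51.5% in WT but in 0.925% in LApc and 0.621% in LApcL, at or below the shared share. In CPM the shared barcodes stood at 1.61% (1.35 to 1.90) of the deep level in WT, 105% (80.3 to 135) in LApc and 111% (84.8 to 142) in LApcL. The residual Khk of the Apc-targeted deep barcodes was thus not above the level in these shared barcodes. The shared levels of Slc5a1 and Mlxipl were lower, at 0.723% and 2.49% of the deep level in LApc and 2.31% and 5.75% in LApcL. For Slc2a5 and Slc2a2 in LApc the ratio rested on few UMIs, at 77.6% (1.88 to 483) and 181% (4.13 to 1307), so that their residual levels could not be told from the shared level. The same held for Slc2a5 in LApcL, at 35.9% (0.885 to 213).

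Members also varied within WT. The deep WT barcodes were put into 5 bins of 241 or 242 barcodes by the share of their UMIs from the 11 enterocyte markers, whose median rose from 0.0521% in bin 1 to 3.73% in bin 5. A bin is a range of a score and not a cell type. Bin 1 held the most stem (1100 CPM), goblet (5200 CPM) and enteroendocrine (3189 CPM) marker RNA and bin 5 the least stem and enteroendocrine RNA, at 78.6 and 11.6 CPM, with 410 CPM for goblet markers. Median depth rose from 32927.5 to 42055 UMIs and the median mitochondrial share from 9.19% to 11.4% between bins 1 and 5.

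G6pc had the widest range along these bins. G6pc stood at 0.572, 4.07, 28.6, 110.0 and 192 CPM in bins 1 to 5, a 335-fold (143 to 1032) range that rests on 5 UMIs in bin 1 and was 71.7-fold with 3 bins. Fbp1 ran from 11.9 over 38.7, 167 and 324 to 464 CPM, a 39.0-fold (32.1 to 47.8) range, which was 24.1-fold with 3 bins and 60.2-fold with the bins set by Apoa1, Apoa4, Apob and Fabp2 alone. Both rose at every step, and at equal depth G6pc was found in 0 of 242 barcodes of bin 1 and in 65.1% of bin 5.

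The facilitative transporters also rose at every step. Slc2a5 stood at 9.50, 20.0, 63.2, 193 and 342 CPM, a 36.0-fold (29.0 to 45.4) range, and Slc2a2 at 9.62, 20.6, 32.7, 79.8 and 139 CPM, a 14.4-fold (11.6 to 18.2) range that was 8.75-fold with 3 bins. The intervals of Slc2a5 and Fbp1 overlapped, and with 3 bins Slc2a5 had the wider range, at 25.8-fold. Khk and Slc5a1 were high in every bin. Khk rose from 292 to 1837 CPM, 6.29-fold (6.03 to 6.56), and Slc5a1 from 161 to 887 CPM, 5.52-fold (5.22 to 5.84). Mlxipl changed least and did not peak with the markers. Its levels were 130, 156, 213.5, 204 and 182 CPM, highest in bin 3, and bin 5 was 1.40-fold (1.30 to 1.51) above bin 1.

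**Figure D3:**
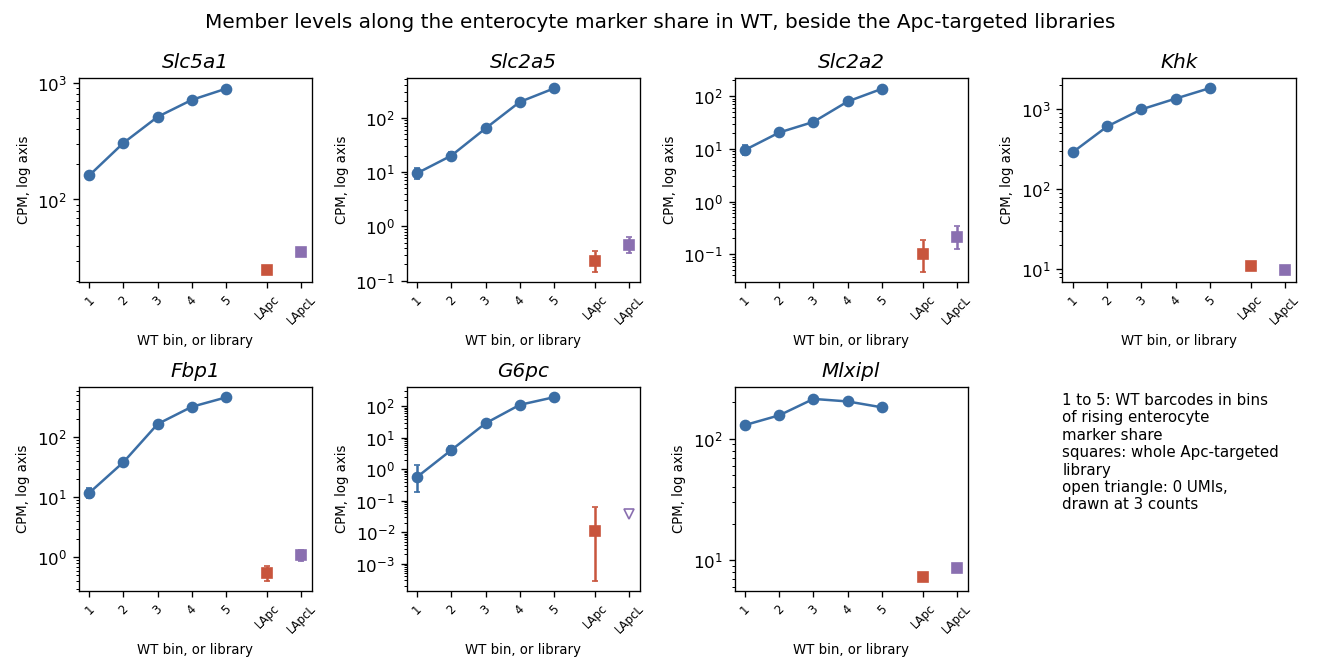
Level of each member (CPM, log axis) in 5 bins of WT barcodes ordered by enterocyte marker share (circles, 1 to 5) and in the whole deep set of LApc and LApcL (squares), with exact 95% Poisson intervals. Of the 7 members, 6 rise at every step from bin 1 to bin 5, while Mlxipl is highest in bin 3 and stays between 130 and 213.5 CPM. Every bin lies above both Apc-targeted libraries.

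The bins also allowed a comparison with the WT barcodes lowest in enterocyte markers, where the markers summed to 499 CPM against 79.6 in LApc and 78.0 in LApcL. Cbr1 alone gave 67.8 and 72.4 CPM of the latter sums, and 7 of the 11 markers in LApc and 8 in LApcL were under 1 CPM. Even there the members stood above the Apc-targeted libraries, as the plot of levels by bin shows. The excess over LApc was 6.48-fold (6.06 to 6.93) for Slc5a1, 18.0-fold (16.3 to 19.9) for Mlxipl, 22.1-fold (15.6 to 31.7) for Fbp1 and 26.7-fold (24.8 to 28.8) for Khk. It was 41.1-fold (25.2 to 69.9) for Slc2a5 and 97.1-fold (48.8 to 220) for Slc2a2, and for G6pc 5 UMIs stood against 1. Over LApcL the excess was between 4.50-fold for Slc5a1 and 45.5-fold for Slc2a2, and at least 15.4-fold for G6pc. Bin 1 still held more enterocyte marker RNA than either Apc-targeted library, and the part of that remainder in these differences was not tested.

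Correlations between members were computed over the 1208 deep WT barcodes thinned to 10000 UMIs. They are descriptions without a p-value, since the barcodes share 1 library and 1 depth. Spearman's rho was above 0 for 21 of 21 pairs, with a median of 0.449. The highest values were 0.673 for Slc5a1 with Khk and 0.666 for Khk with Fbp1, and the lowest was 0.141 for G6pc with Mlxipl. The 6 pairs with Mlxipl ran from 0.141 to 0.337, below all pairs without it, of which the lowest was 0.388 for Slc2a2 with G6pc. Within the 483 barcodes of bins 4 and 5 the median was 0.296 and the range was 0.0752 to 0.525. The pair with the highest value there was Khk with Fbp1.

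**Figure D4:**
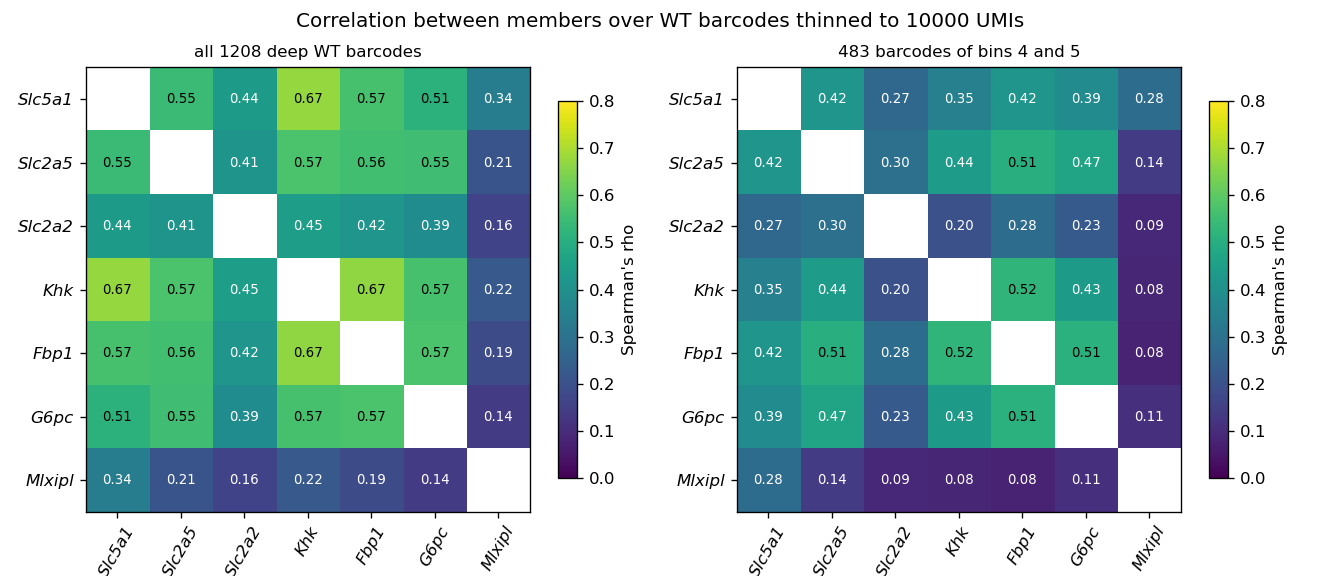
Spearman's rho for each pair of members over all 1208 deep WT barcodes (left) and over the 483 barcodes of the top bins of enterocyte marker share (right), both thinned to 10000 UMIs. The Mlxipl row is the darkest, meaning the lowest, on the left, with 0.141 to 0.337, but on the right its pair with Slc5a1, at 0.283, is above some pairs of Slc2a2, and the 15 pairs without it are lower on the right than on the left.

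The genes whose counts ran most like those of the members were ranked by the same measure. Among 8996 other genes detected in at least 5% of deep WT barcodes, rho with the summed members was 0.856 for Tkfc, 0.810 for the apolipoprotein gene Apoa4 and 0.803 for Sis, which encodes sucrase-isomaltase. Prxl2a, Leap2, Cyp4f14, Guca2b, Gsta1 and Fth1 followed, from 0.767 down to 0.721. Tkfc was among the 3 genes most like each of the 7 members, with rho from 0.290 for Mlxipl to 0.798 for Khk. For Mlxipl the histone gene Hist1h1c reached 0.296, a weak relation beside those of the other members. At the other end were Hsp90ab1 (-0.728) and Ptma (-0.681) for the summed members.

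Mlxipl also stood apart outside the deep set. In WT barcodes of 1 library with under 10000 UMIs and at most 20% mitochondrial UMIs its level was 675 CPM (654 to 697), 3.79-fold (3.65 to 3.93) that of the deep set. In WT barcodes with at least 10000 UMIs but over 20% mitochondrial UMIs it was 394 CPM (379 to 409), 2.21-fold (2.11 to 2.31) that of the deep set. The other 6 members had lower ratios than Mlxipl, at 0.207 for Fbp1 to 0.860 for Slc5a1 in the shallow barcodes and 0.381 for Fbp1 to 1.11 (1.07 to 1.14) for Slc5a1 in the high-mitochondrial ones. In LApc the Mlxipl ratios were 3.38 (2.76 to 4.10) and 1.84 (1.42 to 2.36), and in LApcL 1.73 (1.42 to 2.08) and 1.87 (1.44 to 2.41). The nuclear RNAs Malat1 and Neat1 were also higher in these WT barcodes. Malat1 stood at 5651 CPM in the deep set, 12909 in the shallow and 9638 in the high-mitochondrial barcodes, and Neat1 at 619, 1346 and 1151 CPM. Their part in the Mlxipl difference was not tested.

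**Figure D5:**
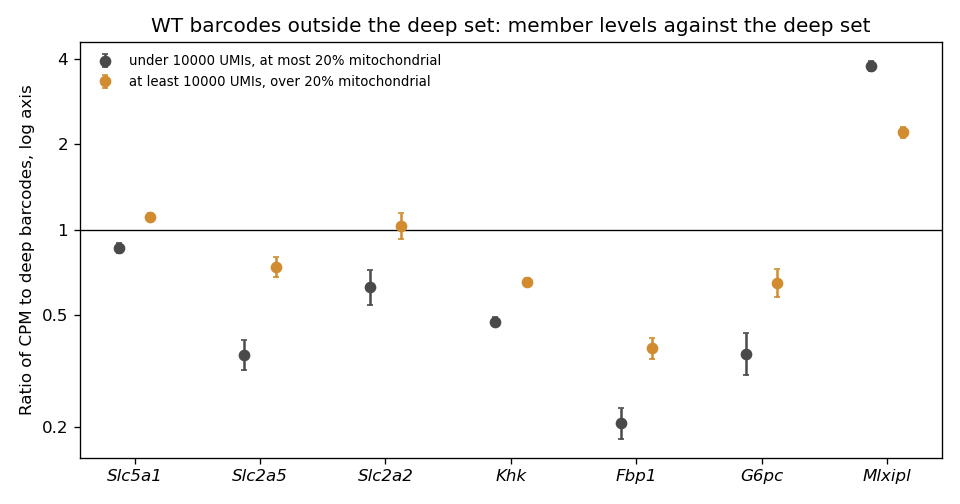
Ratio of each member's CPM to that of the deep set (log axis) in WT barcodes under 10000 UMIs (dark points) and in WT barcodes over 20% mitochondrial UMIs (orange points), with exact 95% intervals for counting error. Mlxipl is the only member well above 1 in both, at 3.79 and 2.21, and Fbp1 is the lowest, at 0.207 and 0.381.

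Other genes of the pathway were read from lists chosen with earlier results of these data known, and named where they reached 10 CPM in 1 library. Of the 4 genes for further fructose steps, 3 were at least 2-fold lower in each Apc-targeted library than in WT and none was higher. Tkfc stood at 796, 19.2 and 15.1 CPM in the order WT, LApc and LApcL, which holds for the values below too, and Sord, sorbitol dehydrogenase, at 160, 45.1 and 42.5 CPM. All 4 disaccharidase genes were lower in both: Sis stood at 1202, 0.275 and 0.211 CPM, the maltase gene Mgam at 237, 38.5 and 71.5 CPM and the lactase gene Lct at 14.5, 0.0770 and 0.0745 CPM.

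The transporter and kinase lists went both ways. Of the other 11 hexose transporters, 2 were lower and 1 was higher in each comparison with WT. The higher gene was Slc2a1, the widely expressed glucose transporter GLUT1, at 15.8 CPM in WT against 68.0 in LApc (4.30-fold, 3.99 to 4.64) and 66.5 in LApcL. Of 6 hexose kinase genes, 2 were higher, namely Hk1 (5.05, 20.7 and 20.5 CPM) and Hk2 (18.9, 73.0 and 62.7 CPM), and 2 were lower, among them Hkdc1 (60.8, 0.561 and 1.04 CPM). Within WT, Hk2 ran opposite to the members, from 48.8 CPM in bin 1 to 2.91 CPM in bin 5, while Slc2a1 stayed between 12.8 and 20.5 CPM.

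Of the 6 other gluconeogenic genes, 3 were lower and 2 higher in each comparison with WT. Slc37a4, which brings glucose-6-phosphate to G6pc, stood at 75.1, 15.6 and 15.6 CPM and Fbp2 at 351, 91.0 and 102 CPM. The broadly expressed phosphatase gene G6pc3 was higher in the Apc-targeted libraries, at 13.5, 33.9 and 34.2 CPM, while Pck2 stood at 27.5, 24.3 and 31.3 CPM. Of 4 galactose genes, only Galm (108, 27.8 and 20.4 CPM) was 2-fold lower, and Galk1 (77.9, 57.5 and 74.8 CPM) and Galt (16.9, 12.6 and 14.6 CPM) did not reach a 2-fold difference.

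Of 8 partners and known targets of ChREBP, 3 were lower in both Apc-targeted libraries and none was higher. They were Pklr, the pyruvate kinase of liver type (265, 19.0 and 20.8 CPM), Txnip (847, 189 and 191 CPM) and Arrdc4 (109, 30.5 and 29.5 CPM). The partner Mlx stood at 58.9, 35.5 and 36.8 CPM and Mlxip at 10.6, 13.7 and 16.4 CPM, and of the lipogenic genes Fasn stood at 52.7, 76.0 and 74.3 CPM and Acaca at 26.2, 24.4 and 25.8 CPM. The fatty acid synthesis genes of this list thus did not reach a 2-fold difference from WT. Over the WT barcodes, rho of Mlxipl with the summed list was 0.279, against 0.339 for Slc5a1 with the same list.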

How the data were processed

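Each library was made with the Chromium Single-Cell 3′ platform, kit v2 or v3. The authors deposited whole-number counts of UMIs per gene and barcode, without normalisation, for barcodes already called as cells. Per the file headers the counts come from Cell Ranger 6.0.1, whereas the labels and the study's methods name 2.1.1. Both give the mm10 (GRCm38) build. Gene positions are from GENCODE on GRCm38, and promoters from RefSeq. Members and lists were chosen with earlier results of these data known. Groups follow the labels.

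UMIs were summed over deep barcodes and scaled to CPM. Intervals at the 95% level were exact Poisson for levels, conditional binomial for folds and Clopper-Pearson for shares. A gene at 0 was set to 3 counts. Ratios of lists used log2(CPM + 1) over 12784 genes with a mean of at least 1 CPM. Barcodes were thinned without replacement with 1 fixed seed. Genes were named when members, when in a pathway list at 10 CPM or more in 1 library, or when among the 3 genes most correlated with a member or the 10 with their sum. Some genes that met this rule, and 1 motif searched, are not reported here. A 3′ count does not depend on transcript length in a known way, so levels were compared within a gene. The interval and ratio steps were tested on simulated data. Doublets were kept: Scrublet in scanpy 1.11.5 marked 1, 0 and 1 barcodes and did not work, so removal of the highest scores (157, 269 and 338 deep barcodes) was an alternative. Other alternatives changed the mitochondrial and UMI limits, the barcodes kept, the scaling, the pseudocount and the bins. Python 3.11.15, numpy 2.4.6, scipy 1.17.1 and pandas 2.3.3 were used.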

Additional observations from a re-analysis of the deposited data

How the results depend on the processing

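The 7 members stayed at least 2-fold lower than WT in LApc and in LApcL under all 12 alternatives for levels, with log2 ratios of -9.31 to -2.76 and -9.46 to -2.75, and LApcL against LApc ran from -0.15 to 0.90. These ratios include a pseudocount, which shrinks low genes, and in CPM without one LApcL was 2.03-fold LApc for Fbp1 and 2.13-fold for Slc2a2. The median log2 ratio moved by more than its counting interval as follows, and where construction does not show why, the cause was not tested. In LApc and LApcL against WT it was -5.87 and -5.89 with a mitochondrial limit of 10%, -5.74 and -5.77 over all barcodes of 1 library, -6.19 and -6.21 without the highest Scrublet scores, -6.67 and -6.79 without the 50 most abundant genes, -6.41 and -6.42 with median-of-ratios size factors, -3.79 and -3.56 with a pseudocount of 10 CPM and -8.20 and -7.46 with 0.1 CPM. For LApcL it was also -6.17 with at least 20000 UMIs and -6.16 with barcodes of several libraries kept. LApcL against LApc gave 0.032 with 10 CPM and 0.53 with 0.1 CPM. The median correlation between members was 0.554 as Pearson's r without thinning, 0.296 in the top bins and 0.463 without the highest Scrublet scores. Of all genes 2-fold apart from WT, 72.1% were higher in LApc and 71.7% in LApcL, and with median-of-ratios size factors 53.3% and 53.7%. No paired analysis was possible because each group had 1 library. Low counts limit Slc2a2, Slc2a5, Fbp1 and G6pc in the Apc-targeted libraries.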

Other observations

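Transcription factors known from enterocytes were less uniform than the members. Of 8 such genes, 2 were at least 2-fold lower in each Apc-targeted library than in WT. These were Gata4, a factor of the proximal small intestine, at 47.8 CPM in WT against 0.0220 in LApc and 0.0124 in LApcL, and Hnf4g at 102, 9.79 and 15.9 CPM. Hnf4a stood at 95.2, 52.2 and 71.6 CPM, Cdx1 at 112, 88.2 and 86.6 CPM and Gata6 at 86.6, 79.4 and 80.0 CPM. Cdx2 stood at 96.3, 75.6 and 162 CPM and was 2.14-fold (2.08 to 2.21) higher in LApcL than in LApc. Of the genes that mark regions of the intestine, Onecut2 stood at 126, 112 and 62.8 CPM and the ileal bile acid transporter gene Slc10a2 at 20.9, 3.94 and 6.16 CPM.

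Of 5 genes known from villus tips, 2 were at least 2-fold higher in LApc (Ada and Egfr) and 3 in LApcL (Ada, Klf4 and Slc28a2, the last named after its values were seen) than in WT. In the order WT, LApc and LApcL, Ada, adenosine deaminase, stood at 1.82, 19.8 and 16.2 CPM, Egfr, a growth factor receptor, at 5.40, 17.9 and 8.00 CPM, Klf4 at 104, 150 and 215 CPM and Slc28a2 at 0.368, 0.869 and 4.41 CPM. Egfr was 2.24-fold (2.04 to 2.45) lower in LApcL than in LApc. Of 6 genes known from villus bottoms, Reg3b (18.7, 810.5 and 1600 CPM) and Reg3g (9.71, 47.1 and 287 CPM), which encode antimicrobial lectins, were higher in both, and Reg1 (89.3, 5.04 and 8.19 CPM) and Nlrp6 (88.9, 9.55 and 13.8 CPM) were lower in both. Spearman's correlation of the members with the summed villus tip and villus bottom lists over WT barcodes was between -0.042 and 0.14, against 0.14 to 0.74 with the summed enterocyte markers. In WT, Klf4 gave 104 of the 111 CPM of the villus tip sum, so that sum mostly follows 1 gene. In the top bins of enterocyte marker share all 7 values with the villus bottom list were below 0, from -0.22 for Fbp1 to -0.058 for Slc2a2, and Mlxipl stood at -0.063 with the enterocyte markers.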
